A study of Mus musculus with 10 samples.

Results

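The 10 genes described here encode acute phase proteins that the liver releases into plasma: the serum amyloid A genes Saa1, Saa2, Saa3 and Saa4, the orosomucoid genes Orm1, Orm2 and Orm3, lipocalin 2 (Lcn2), haptoglobin (Hp) and hemopexin (Hpx). They were taken by symbol from a table of 59408 mouse gene models, each symbol matched 1 model, and all 10 were among the 18390 models tested. RNA sequencing had been done on whole livers of 10 C57Bl/6 mice, collected at day 35. The 3 PBC mice modelled autoimmune primary biliary cholangitis: they were immunised by the intraperitoneal route with 100 µg of a conjugate of 2-octynoic acid and bovine serum albumin (2OA-BSA), in complete Freund's adjuvant at day 0 and in incomplete adjuvant at days 14 and 28, and received 2 µg of intravenous α-galactosylceramide, a glycolipid antigen of NKT cells, with the first pair of injections. The 3 PSC mice modelled primary sclerosing cholangitis without autoimmunity: they ate 0.089% of DDC (3,5-diethoxycarbonyl-1,4-dihydrocollidine), a porphyrinogenic compound that injures bile ducts, for 2 weeks and, after 1 week on regular food, for 1 more week. The 4 control mice had neither treatment, so that effects of adjuvant, antigen and glycolipid in PBC cannot be told apart. The sources used here give neither sex nor age.

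The acute phase response is the change in plasma proteins that follows infection or injury. Cytokines, chiefly interleukin 6 and interleukin 1, reach hepatocytes and act through STAT3, NF-kB and C/EBP factors on the genes of these proteins. Positive acute phase proteins rise in plasma, negative ones such as albumin fall, and feedback inhibitors such as SOCS3 end the response.

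Values are reads per gene model as normalised by the authors, called normalised reads below. Read depth, recovered from these values, was 38272053 to 95422289 reads a library. The hepatocyte markers (8 of 8 present in every group) summed to 8692237 to 12835915 normalised reads in PBC, 5646844 to 6767587 in PSC and 8484877 to 9729239.6 in control livers. Most of these reads are those of Alb, Apoa1 and Ttr. Mitochondrial models took 5.13% to 13.7% of the reads, with control liver 2 the highest. Fold changes are on the log2(value + 1) scale, and adjusted p-values are from limma with Benjamini-Hochberg adjustment over all 18390 models, at a threshold of 0.05. A gene past it is called higher or lower.

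The members lie in a few places of the genome (mm10). The Saa genes sit side by side on chromosome 7, with Saa3 (GSMG0035940) at 46711998 to 46715676 on the minus strand, Saa4 (GSMG0035941) at 46727992 to 46732603 on the minus strand, Saa1 (GSMG0035942) at 46740497 to 46742982 on the minus strand and Saa2 (GSMG0034497) at 46751833 to 46754314 on the plus strand. The Orm genes form a cluster on chromosome 4, with Orm1 (GSMG0026636) at 63344556 to 63348163 on the plus strand, Orm3 (GSMG0026637) at 63356162 to 63359511 on the plus strand and Orm2 (GSMG0026638) at 63362449 to 63365878 on the plus strand. Of the single genes, Lcn2 (GSMG0022641) spans 32384637 to 32387771 on chromosome 2, Hp (GSMG0038900) spans 109575128 to 109579172 on chromosome 8, and Hpx (GSMG0036436) spans 105591613 to 105600116 on chromosome 7. Copies of a gene can share reads. Of the 75-base windows of the principal transcripts, the length of 1 read, 25 of 535 in Saa1 (4.67%) also occur in Saa2, and 97 of 701 in Orm1 (13.8%) also occur in Orm2, while Orm3 shares 1 of 699 with Orm2 (0.14%). Saa3, Saa4, Lcn2, Hp and Hpx share 0 windows with any other transcript. The sources used here do not say how reads that fit several genes were counted, so the split between Saa1 and Saa2 and between Orm1 and Orm2 is uncertain, and their sums are given too.

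Promoter sequence was on hand for 8 of the 10 members (RefSeq, build GRCm38.p6, the assembly that mm10 is made from), not for Orm1 and Hp. The 5 printed here are the copy pairs, which show how alike their start regions are, and Lcn2, the member with the largest fold change. Each is the 250 bases before the annotated start, 5′ to 3′ on the strand of the gene, with matches to the C/EBP motif (TTNNGCAA on either strand) and the TATA motif (TATAAA) in capitals.
Saa1, chr7:46742981-46743230, minus strand: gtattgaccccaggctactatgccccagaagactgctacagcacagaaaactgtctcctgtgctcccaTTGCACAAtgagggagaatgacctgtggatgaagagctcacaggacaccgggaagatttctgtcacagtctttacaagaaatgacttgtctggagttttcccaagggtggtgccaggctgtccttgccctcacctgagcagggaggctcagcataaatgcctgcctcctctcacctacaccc
Saa2, chr7:46751583-46751832, plus strand: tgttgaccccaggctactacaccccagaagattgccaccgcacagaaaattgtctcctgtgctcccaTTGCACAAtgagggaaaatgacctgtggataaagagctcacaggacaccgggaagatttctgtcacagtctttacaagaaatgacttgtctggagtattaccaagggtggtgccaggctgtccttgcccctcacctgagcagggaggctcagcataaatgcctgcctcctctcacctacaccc
Orm2, chr4:63362199-63362448, plus strand: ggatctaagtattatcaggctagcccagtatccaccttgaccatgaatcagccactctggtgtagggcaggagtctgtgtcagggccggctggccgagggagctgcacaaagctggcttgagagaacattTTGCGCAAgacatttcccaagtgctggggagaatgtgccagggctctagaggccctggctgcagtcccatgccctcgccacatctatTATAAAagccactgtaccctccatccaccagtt
Orm3, chr4:63355908-63356157, plus strand: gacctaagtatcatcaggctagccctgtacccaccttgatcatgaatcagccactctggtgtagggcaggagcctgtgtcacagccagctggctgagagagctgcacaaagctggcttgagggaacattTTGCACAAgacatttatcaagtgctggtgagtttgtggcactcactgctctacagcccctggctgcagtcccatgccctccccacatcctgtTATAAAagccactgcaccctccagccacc
Lcn2, chr2:32387740-32387989, minus strand: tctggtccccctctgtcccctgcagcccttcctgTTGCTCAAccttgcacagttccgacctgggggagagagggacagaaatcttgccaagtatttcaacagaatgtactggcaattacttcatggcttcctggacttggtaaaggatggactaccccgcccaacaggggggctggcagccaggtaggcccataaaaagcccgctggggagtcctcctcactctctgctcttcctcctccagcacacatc
Over 300 bases, from 250 before to 50 after the start, Saa1 and Saa2 were identical at 287 aligned bases (95.7%) and Orm2 and Orm3 at 263 (87.7%). The C/EBP letters occurred in 8 of 8 member promoters, against 10.8% of the 32851 promoters of this length. They began 182 bases before the start in Saa1, 183 in Saa2, 120 in Orm2, 121 in Orm3, 216 in Lcn2, 99 in Saa3 and 200 in Hpx, and at 245 and 52 in Saa4. The match in Orm2 reads the same on both strands. TATAAA on the strand of the gene occurred in Orm2 and Orm3 only, 2 of 8, against 8.32% of all promoters. The STAT letters TTCNNNGAA were found in 0 of 8 (8.30% of all) and the NF-kB consensus in 0 of 8 (8.46% of all), on either strand, which says only that these letters are not in this window. No motif match overlapped a match to another motif. A match is a description of letters, and binding was not measured.

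**Figure D1:**
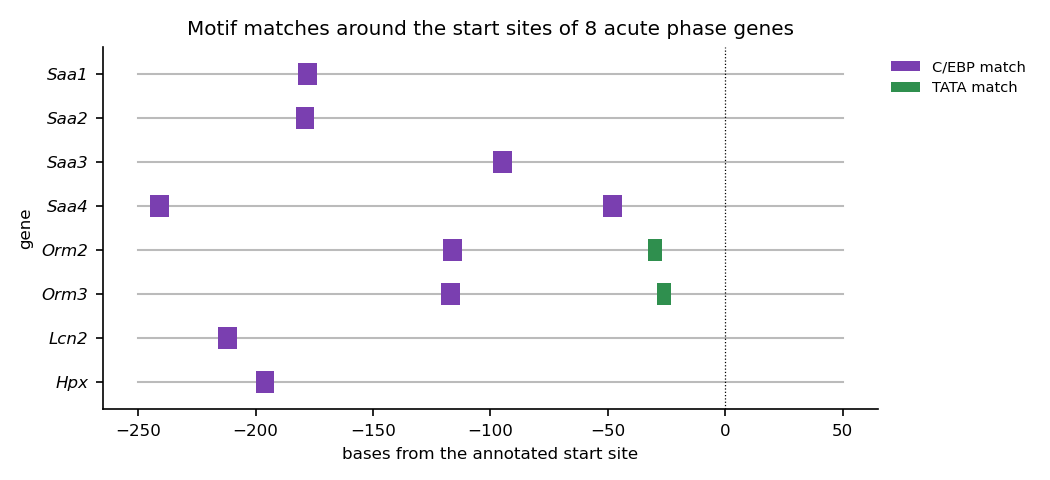
Motif matches in the 300 bases around the annotated start sites of 8 members (x axis: bases from the start site, marked by the dotted line; each row is 1 gene). Boxes are matches to the C/EBP letters, present in 8 of 8, and to TATAAA, present in Orm2 and Orm3.

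All 10 members were higher in both models than in controls. In PBC livers 10 of 10 were called higher by limma, against 7.60% of all models tested, with log2 fold changes of 1.23 to 6.13 and a median of 3.90 (SE 0.20 to 0.52, n = 3 and 4). In PSC livers 10 of 10 were called higher too, against 8.25% of all models, with 0.65 to 7.05 and a median of 3.84 (SE 0.20 to 0.52, n = 3 and 4). The median over all models tested was 0.01 in PBC and 0.06 in PSC. For every member, each PBC liver and each PSC liver lay above each control liver, a pattern that 12.7% of all models had in PBC and 15.9% in PSC. The PBC and PSC comparisons share their 4 control livers. edgeR called 10 of 10 in PBC (8.54% of all models in either direction) and 9 of 10 in PSC (14.2%), missing Saa4. These are whole livers, in which fewer cells of a type and less RNA per cell cannot be told apart, and likewise more cells and more RNA.

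**Figure D2:**
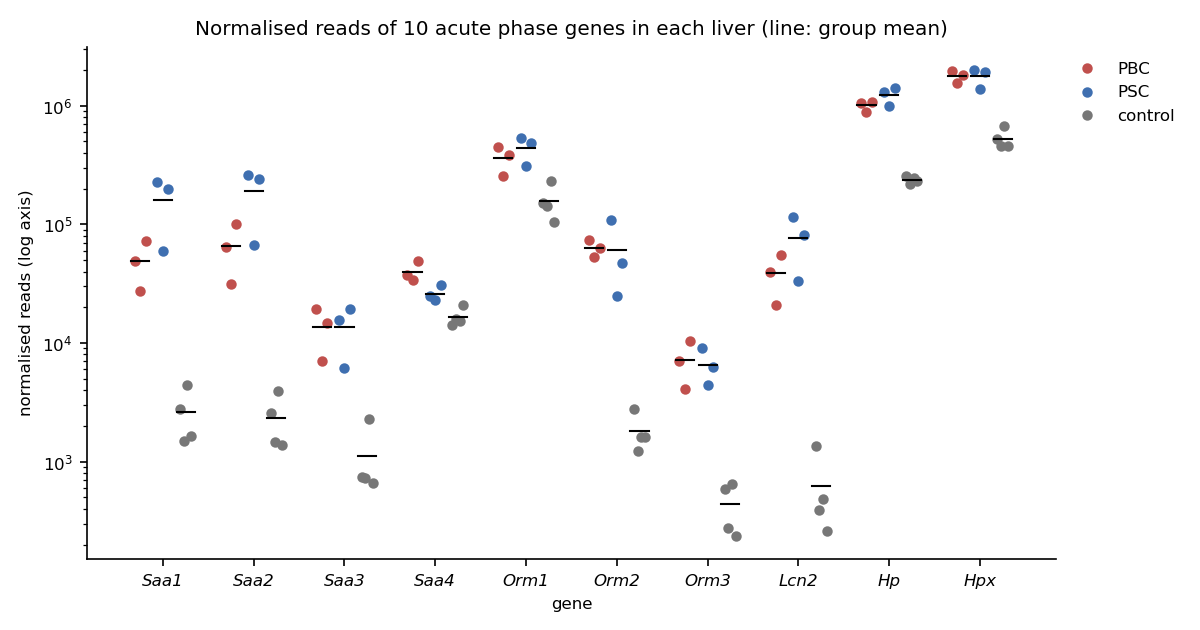
Normalised reads (log axis) of the 10 members in each liver, with PBC, PSC and control livers from left to right and group means as lines (n = 3, 3 and 4). The lowest treated liver lies above the highest control for each gene, closely for Orm1 and Saa4 and by a wide gap for Lcn2, Saa2 and Orm2.

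**Figure D3:**
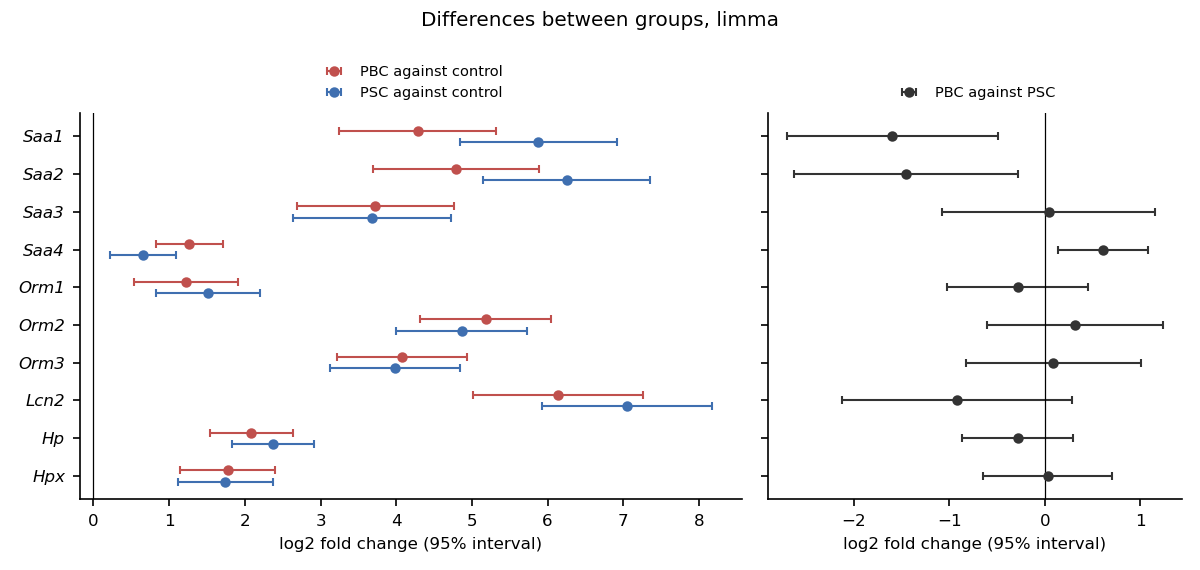
Log2 fold changes with 95% intervals (limma) of PBC and PSC against control (left) and of PBC against PSC (right). Against control the values run from 0.65 for Saa4 in PSC to 7.05 for Lcn2 in PSC, and between the models from -1.60 for Saa1 to 0.61 for Saa4.

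Together the members took from 0.937% of all normalised reads in a control liver to 5.12% in a PSC liver. They held 3.42%, 3.54% and 3.47% of all normalised reads in PBC livers 7, 8 and 9, 5.12%, 3.25% and 4.63% in PSC livers 11, 13 and 14, and 1.10%, 0.937%, 1.21% and 0.952% in control livers 1 to 4. Every PBC and PSC liver had a larger share than every control, and PBC and PSC overlapped. The mean shares were 3.48 ± 0.0648% in PBC, 4.33 ± 0.970% in PSC and 1.05 ± 0.129% in controls (SD, n = 3, 3 and 4). Hpx and Hp, the scavengers of heme and hemoglobin, made up most of these reads in every group, with no correction for transcript length. The Saa genes took 0.123 to 0.224% in PBC, 0.174 to 0.588% in PSC and 0.0221 to 0.0283% in controls. With 3 livers against 4, an exact two-sided permutation test of 1 value cannot go below p = 0.0571, and the shares were not tested in another way.

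**Figure D4:**
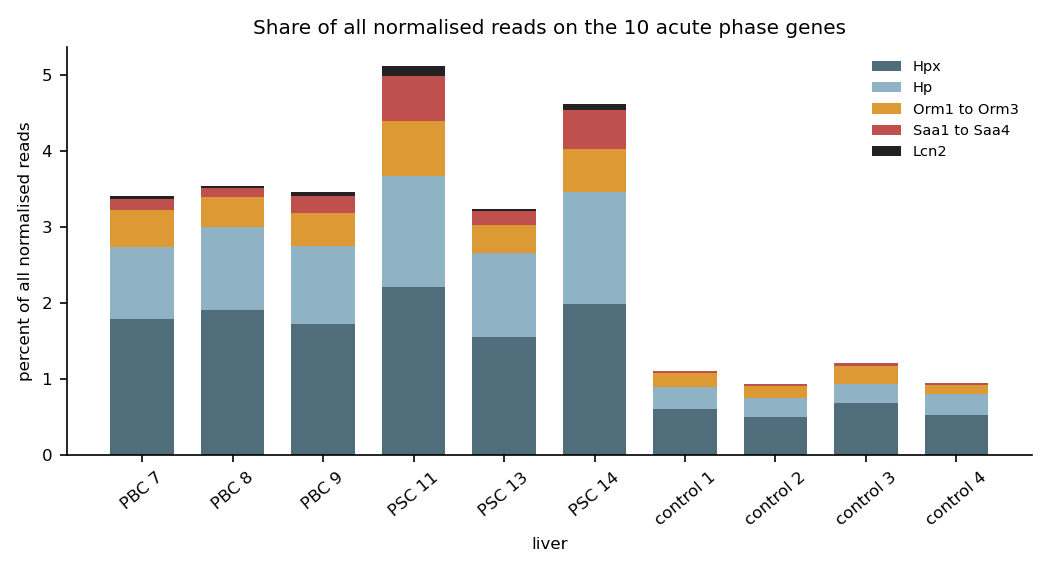
Percent of all normalised reads on the members in each liver (y axis), stacked by gene or gene family, with PBC, PSC and control livers from left to right. The bars reach 3.42% to 3.54% in PBC, 3.25% to 5.12% in PSC and 0.937% to 1.21% in control livers.

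Saa1 and Saa2 encode the serum amyloid A forms that ride on high density lipoprotein and are the classical acute phase forms in the mouse. Saa1 had 48634, 27582 and 72151 normalised reads in PBC livers 7, 8 and 9, 225043, 60065 and 197798 in PSC livers 11, 13 and 14, and 2794, 1502, 4447 and 1659 in control livers 1 to 4. Saa1 was lowest in the controls, and among the PSC livers 13 stood well below 11 and 14, within the range of PBC. The Saa1 change was 4.28 (SE 0.48, adjusted p = 0.000198) in PBC, a 19.0-fold ratio of means, and 5.88 (SE 0.48, adjusted p = 8.12e-06) in PSC, a 61.9-fold ratio. Saa2 had 64519, 31279 and 100021 normalised reads in PBC livers 7, 8 and 9, 260386, 66657 and 240570.05 in PSC livers 11, 13 and 14, and 2556, 1452, 3914 and 1383 in control livers 1 to 4. Saa2 ordered the livers as Saa1 did within PBC and PSC, and its groups overlapped only between PBC and PSC. Its log2 fold change was 4.79 (SE 0.51, adjusted p = 0.000131) in PBC and 6.25 (SE 0.51, adjusted p = 8.09e-06) in PSC. Without PSC liver 13 the changes in PSC became 6.48 for Saa1 and 6.88 for Saa2. The Saa2 to Saa1 ratio of reads was 1.13 to 1.39 in PBC, 1.11 to 1.22 in PSC and 0.833 to 0.967 in controls, and was thus higher in each of the 6 treated livers than in each control. Summed, Saa1 and Saa2 averaged 114729 ± 56672 normalised reads in PBC, 350173 ± 194939.6 in PSC and 4927 ± 2544 in controls (SD, n = 3, 3 and 4). The sum rose by 4.55 (SE 0.50, adjusted p = 0.000174) in PBC and 6.07 (SE 0.50, adjusted p = 8.89e-06) in PSC. Without PSC liver 13 the PSC value became 6.69.

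Saa3 is made outside the liver too, among others by macrophages, and Saa4 is the constitutive form, which changes little in the classical response. Saa3 had 19447, 7061 and 14622 normalised reads in PBC livers 7, 8 and 9, 15769.6, 6104 and 19175 in PSC livers 11, 13 and 14, and 750.0, 732, 2296 and 657 in control livers 1 to 4. Control 3 stood apart from the other controls, whose values lay close together, and was still below every treated liver. Saa3 rose by 3.72 (SE 0.48, adjusted p = 0.000489) in PBC and 3.68 (SE 0.48, adjusted p = 0.000399) in PSC. Saa4 had 37364, 34100.4 and 48613 normalised reads in PBC livers 7, 8 and 9, 24687, 22874 and 30733 in PSC livers 11, 13 and 14, and 14245, 16057, 15432 and 20735 in control livers 1 to 4. The Saa4 groups formed 3 separate ranges, PBC above PSC above control. Saa4 rose by 1.27 (SE 0.20, adjusted p = 0.00201) in PBC, a 2.41-fold ratio of means, and by 0.65 (SE 0.20, adjusted p = 0.0469) in PSC, a 1.57-fold ratio. The PSC call of Saa4 was close to the threshold. The Saa4 call in PSC ended on removing PSC 11, 13 or 14, PBC 7 or control 1, 2 or 3, and on using edgeR, equal totals, TMM scaling or no filter (adjusted p from 0.0509 to 0.22). Saa4 held 20.6 to 34.1% of the reads of the 4 Saa genes in PBC, 4.69 to 14.7% in PSC and 59.1 to 84.9% in controls, shares that did not overlap between any pair of groups. Its principal transcript is 2094 bases long, against 555 to 652 in Saa1, Saa2 and Saa3, so a share of reads is larger than a share of transcripts.

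The orosomucoids, or α1-acid glycoproteins, are abundant plasma proteins that bind many drugs and damp inflammation. Orm1 had 451580.4, 257401 and 380388 normalised reads in PBC livers 7, 8 and 9, 535753, 308986 and 484608 in PSC livers 11, 13 and 14, and 151122, 141551, 233132 and 104914 in control livers 1 to 4. The lowest PBC liver, 8, was only a little above the highest control, 3. Orm1 rose by 1.23 (SE 0.32, adjusted p = 0.0297) in PBC and 1.51 (SE 0.32, adjusted p = 0.00813) in PSC. The Orm1 call in PBC ended on removing PBC 7 or 9 or control 1, 2 or 4, and on using only the compared groups or no filter (adjusted p from 0.0528 to 0.117). Orm2 had 74138, 53237 and 62623 normalised reads in PBC livers 7, 8 and 9, 108767, 24803 and 47311 in PSC livers 11, 13 and 14, and 2798, 1235, 1612 and 1612 in control livers 1 to 4. Orm2 was low in every control and varied little among PBC livers, while PSC liver 11 had several times the reads of PSC liver 13. Orm2 rose by 5.18 (SE 0.40, adjusted p = 2.07e-05) in PBC, a 34.9-fold ratio of means, and by 4.86 (SE 0.40, adjusted p = 8.29e-06) in PSC, or 4.14 with quality weights for the libraries. Orm3 had 7030.1, 4071 and 10466 normalised reads in PBC livers 7, 8 and 9, 9055, 4407 and 6273 in PSC livers 11, 13 and 14, and 584, 276, 646 and 237 in control livers 1 to 4. Orm3 was the lowest of the Orm genes in all 10 livers, and its treated livers overlapped each other but not the controls. It rose by 4.07 (SE 0.40, adjusted p = 7.79e-05) in PBC and 3.99 (SE 0.40, adjusted p = 4.49e-05) in PSC. Orm2 made up 13.8 to 16.9% of Orm reads in PBC, 7.33 to 16.6% in PSC and 0.685 to 1.81% in controls. Orm3 made up 1.29 to 2.31%, 1.17 to 1.39% and 0.193 to 0.378% in the same groups. In both cases each treated liver had a larger share than each control. The 3 genes summed averaged 433645 ± 110365 normalised reads in PBC, 509988 ± 159569.6 in PSC and 159930.1 ± 54268 in controls (SD), and the sum rose by 1.46 (SE 0.33, adjusted p = 0.0137) in PBC and 1.68 (SE 0.33, adjusted p = 0.00517) in PSC. In PBC the summed call was lost without PBC 7 (1.30, adjusted p = 0.0643) or PBC 9 (1.42, adjusted p = 0.0628).

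Lcn2 encodes lipocalin 2, which binds bacterial siderophores and so withholds iron from bacteria, and which is stored in neutrophil granules as well as made by injured epithelia and hepatocytes. Lcn2 had 39888, 20964 and 55577 normalised reads in PBC livers 7, 8 and 9, 114643, 33612 and 80894 in PSC livers 11, 13 and 14, and 1363, 393, 488 and 261 in control livers 1 to 4. Control 1 was the highest control and still far below the lowest treated liver, PBC 8. Lcn2 had the largest fold change of the 10 members in both models. It rose by 6.13 (SE 0.52, adjusted p = 3.16e-05) in PBC, a 62.0-fold ratio of means, and by 7.05 (SE 0.52, adjusted p = 3.77e-06) in PSC, a 122-fold ratio. With quality weights for the libraries these became 5.52 and 5.94. Neutrophil markers were also higher against control. Of 10 (S100a8, S100a9, Ltf, Camp, Ngp, Mpo, Elane, Retnlg, Cxcr2 and Csf3r), 9 were called higher in PBC and 7 in PSC against control (7.60% and 8.25% of all models). Between the models 5 were called, all higher in PBC (2.24% of all models in either direction). Their summed level was 39100.0 to 116335 normalised reads in PBC, 9001 to 16316 in PSC and 415 to 6547 in controls. None of the 10 was at 0 in a whole group. The summed level was thus higher in each PBC than in each PSC liver. Mean Lcn2 was 38809 ± 17331 in PBC and 76383 ± 40704 in PSC. Its PBC and PSC livers overlapped, and limma did not call the difference (-0.92 for PBC minus PSC, adjusted p = 0.391). The part of neutrophils in the Lcn2 result was not tested.

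Haptoglobin captures hemoglobin and hemopexin captures free heme in plasma, and both deliver their cargo to receptors for clearance. Hp had 1045335, 890460.3 and 1082392 normalised reads in PBC livers 7, 8 and 9, 1302122, 984109.99 and 1418944 in PSC livers 11, 13 and 14, and 253148, 219071, 243493 and 231175 in control livers 1 to 4. Hpx had 1970679.96, 1557097 and 1818733 normalised reads in PBC livers 7, 8 and 9, 1984847, 1393709.6 and 1901975 in PSC livers 11, 13 and 14, and 519882, 452673, 674781 and 459740.4 in control livers 1 to 4. For both genes the PBC and PSC livers overlapped each other, and all 6 lay well above the controls. Both were also among the steadiest members, since within a group the highest liver had 1.16 to 1.44 times the reads of the lowest for Hp and 1.27 to 1.49 times for Hpx. Hp rose by 2.08 (SE 0.25, adjusted p = 0.000308) in PBC, a 4.25-fold ratio of means, and by 2.37 (SE 0.25, adjusted p = 7.92e-05) in PSC, a 5.22-fold ratio. Hpx rose by 1.77 (SE 0.29, adjusted p = 0.00228) in PBC and 1.74 (SE 0.29, adjusted p = 0.00215) in PSC, 3.38-fold and 3.34-fold. The Hpx call in PBC was lost with no filter on low values (adjusted p = 0.0537). The Hpx to Hp ratio of reads was 1.68 to 1.89 in PBC, 1.34 to 1.52 in PSC and 1.99 to 2.77 in controls. These 3 ranges did not overlap, PSC being lowest and controls highest.

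Between the models no member was called by limma (0 of 10, against 2.24% of all models tested). At an unadjusted p below 0.05 there were 3 (18.5% of all models), namely Saa1, Saa2 and Saa4. edgeR called 0 (2.26% of all models) and DESeq2 called 2 (6.60% of all models), namely Saa1 and Saa2. The Saa1 difference, PBC minus PSC, was -1.60 (95% interval -2.70 to -0.49, adjusted p = 0.129) and that of Saa2 was -1.46 (-2.63 to -0.28, adjusted p = 0.179). With DESeq2 they were -1.74 (adjusted p = 0.0113) and -1.57 (adjusted p = 0.0362). Without PSC liver 13 they became -2.20, called at adjusted p = 0.0497, and -2.09, not called. Saa4 went the other way, at 0.61 (0.14 to 1.08, adjusted p = 0.162), and was the only member of which the PBC and PSC livers did not overlap (1 of 10, against 27.2% of all models in either direction). Lcn2 differed by -0.92 (-2.12 to 0.29), Orm1 by -0.29 (-1.02 to 0.45) and Hp by -0.28 (-0.87 to 0.30). The remaining differences were 0.32 for Orm2 (-0.60 to 1.24), 0.09 for Orm3 (-0.83 to 1.00), 0.04 for Saa3 (-1.07 to 1.15) and 0.03 for Hpx (-0.64 to 0.70). Each of these 7 intervals holds 0, and several are wide enough to hold a 2-fold difference, so they do not show that the models act alike.

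The order of the livers within a group was shared by many members, in part depending on the scale. PBC liver 8 was the lowest PBC liver for 10 of 10 members, and PSC liver 13 the lowest PSC liver for 10 of 10. With all libraries scaled to equal totals the count stayed at 10 of 10 for PSC 13 and became 6 of 10 for PBC 8, which was then the highest PBC liver for Hp and Hpx and had the largest share of reads on the members in PBC. PSC liver 11 was the highest PSC liver for 7 members and PSC 14 for Saa3, Saa4 and Hp. Among controls, liver 3 was the highest for 6 members and liver 4 the lowest for 5. The spread was widest for Lcn2 in controls, where the highest liver had 5.22 times the reads of the lowest, and for Orm2 in PSC, with 4.39 times.

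Levels were set side by side as normalised reads per kilobase of principal transcript (GENCODE). In all 3 groups Hpx was the highest member, at 1188906 ± 139561 in PBC, 1174234 ± 213518 in PSC and 351414 ± 68832 in controls (mean ± SD), and Orm3 the lowest, at 9299.9 ± 4140.3, 8510.2 ± 3026 and 564 ± 271. In PBC the order below Hpx was Hp, Orm1, Saa2, Orm2, Saa1, Lcn2, Saa3, Saa4 and Orm3, in which Hpx, Hp and Orm1 each stood clear of the next member, as Saa4 did of Orm3, and each of the middle ranks from Saa2 to Saa3 overlapped the next. The PSC order was Hpx, Hp, Orm1, Saa2, Saa1, Lcn2, Orm2, Saa3, Saa4 and Orm3, with Hp alone clear of the member after it. In controls it was Hpx, Orm1, Hp, Saa4, Saa1, Saa2, Orm2, Saa3, Lcn2 and Orm3, and here only Hpx and Hp were clear of the next. Lcn2 thus ranked 7th of 10 in PBC, 6th in PSC and 9th in controls, and Saa4 9th, 9th and 4th.

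Other acute phase genes were read from lists of 25 positive and 15 negative ones. Of the 25 positive genes, 17 were called higher and 0 lower in PBC, and 14 higher and 0 lower in PSC. Of all models, 7.60% were called higher in PBC and 8.25% in PSC. Their median log2 fold change was 1.27 in PBC and 1.09 in PSC, below the members' 3.90 and 3.84. C4b, a complement component, rose by 2.06 (SE 0.24, adjusted p = 0.000217) in PBC, Lrg1, a leucine-rich plasma glycoprotein, by 2.31 (SE 0.33, adjusted p = 0.000859), Itih4 by 1.54 (SE 0.23, adjusted p = 0.001) and Lbp, the lipopolysaccharide binding protein, by 1.89 (SE 0.28, adjusted p = 0.00105). In PSC, Cd14, the co-receptor for lipopolysaccharide, rose by 4.23 (SE 0.34, adjusted p = 6.82e-06), Lrg1 by 2.55 (SE 0.33, adjusted p = 0.000352), A2m, for α2-macroglobulin, by 5.08 (SE 0.81, adjusted p = 0.00158) and Cp, for the copper protein ceruloplasmin, by 1.53 (SE 0.25, adjusted p = 0.00174). C4b (1.41, adjusted p = 0.00215), Itih4 (1.00, adjusted p = 0.0113) and Lbp (1.61, adjusted p = 0.00254) were called higher in PSC too. Cd14 (2.29, adjusted p = 0.0011), A2m (4.43, adjusted p = 0.0042) and Cp (1.41, adjusted p = 0.0034) were likewise called higher in PBC. A2m was low, with at most 7.70 normalised reads in a control, and its change in PSC became 3.00 with a pseudocount of 10. Cd14 was the 1 positive gene called between the models (2.24% of all models in either direction), at -1.94 (SE 0.36, adjusted p = 0.0139), PBC minus PSC. The Cd14 call between the models ended on removing PSC 11 or 14 or PBC 7 (adjusted p from 0.0509 to 0.0795). The PBC count became 10 without PBC 9 and 11 with only the compared groups in the fit.

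Of the 15 genes of the negative list, 1 was called higher and 0 lower in PBC (7.60% and 2.34% of all models). In PSC 0 were called higher and 1 lower (8.25% and 6.48% of all models). The median log2 fold changes of the list were 0.20 in PBC and -0.12 in PSC. In PSC edgeR called 4 of the 15 and DESeq2 called 5, against 14.2% and 20.7% of all models, all counted in either direction. Alb, for albumin, averaged 7022863 ± 1396085 normalised reads in PBC, 3397602 ± 255677 in PSC and 5602143 ± 1075814 in controls (SD, n = 3, 3 and 4). Every PSC liver lay below every control, and PBC overlapped the controls. Its log2 fold change was 0.33 (SE 0.37, adjusted p = 0.613) in PBC and -0.70 (SE 0.37, adjusted p = 0.222) in PSC, neither called by limma. The PSC difference was called lower by edgeR (-0.75, adjusted p = 0.0443), DESeq2 (-0.74, adjusted p = 0.00712) and with quality weights (-0.72, adjusted p = 0.0424), and not under the other alternatives (adjusted p from 0.0768 to 0.691). Fetub, for fetuin B, was the gene called in PBC, at 0.89 (SE 0.24, adjusted p = 0.0334), and Pon1, for the lipoprotein enzyme paraoxonase 1, the gene called in PSC, at -0.66 (SE 0.19, adjusted p = 0.0382). Afm, for afamin, was called higher in PBC than in PSC, at 0.97 (SE 0.20, adjusted p = 0.0253). All 3 calls were lost without any of several single livers. The Fetub call in PBC ended on removing PSC 13 or 14, PBC 7 or 9 or control 1 or 3, and on using only the compared groups, equal totals, TMM scaling or no filter (adjusted p from 0.0501 to 0.162). The Pon1 call in PSC ended on removing PSC 11, 13 or 14, PBC 7 or control 1, 2 or 4, and on using no filter (adjusted p from 0.0512 to 0.135). The Afm call between the models ended on removing PSC 11, 13 or 14 or PBC 7 or 9 (adjusted p from 0.0827 to 0.127).

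**Figure D5:**
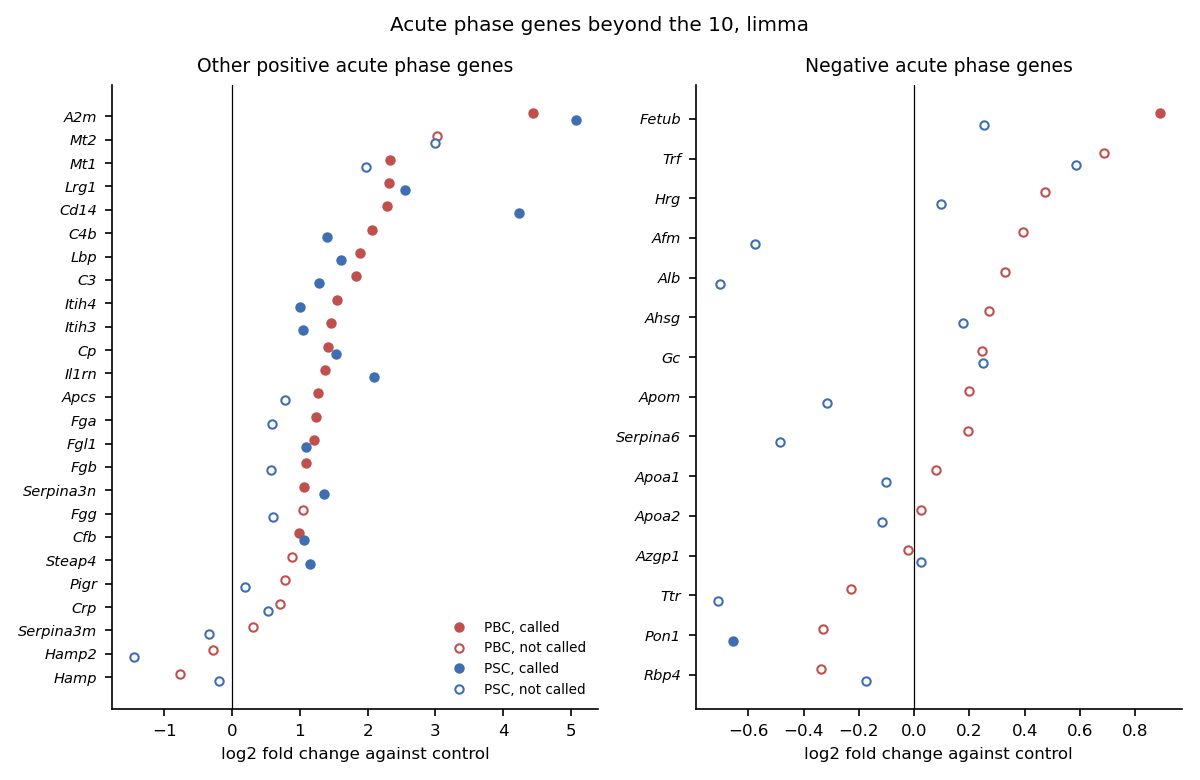
Log2 fold changes against control (x axis) of 25 other positive and 15 negative acute phase genes in PBC and PSC, filled where limma called them. Positive genes lie mostly right of 0, with 17 called in PBC and 14 in PSC, and 1 of 15 negative genes is filled in each model.

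Of 40 genes upstream of the members (cytokines, their receptors, signalling proteins and factors, and feedback inhibitors) 38 were tested, 10 were called higher and 0 lower in PBC, and 8 higher and 2 lower in PSC. Of all models, 7.60% were called higher and 2.34% lower in PBC. In PSC these shares were 8.25% and 6.48%, so the 2 lower calls are near the share of all models. Among 10 cytokines, Il17a and Il22 had 0 reads in all 10 libraries, which allows up to 3 reads a library. Osm, for the interleukin 6 relative oncostatin M, was called in both models, at 3.71 (SE 0.55, adjusted p = 0.00105) in PBC and 2.39 (SE 0.55, adjusted p = 0.0119) in PSC, from levels of at most 5.11 normalised reads in controls. Il1b was called in PBC, at 1.59 (SE 0.38, adjusted p = 0.0196), and Lif, for another interleukin 6 relative, in PSC, at 3.22 (SE 0.61, adjusted p = 0.00446). Il6 had 4.23 to 19.9 normalised reads in PBC, 15.95 to 27.9 in PSC and 1.39 to 33.2 in controls, and was not called in PBC (adjusted p = 0.928) or PSC (adjusted p = 0.514). With a pseudocount of 10 the change of Osm became 2.27 in PBC and 1.24 in PSC, and that of Lif 2.30. The Osm call in PSC ended on removing PSC 11 or 13 (adjusted p from 0.0534 to 0.0699). The Il1b call in PBC ended on removing PBC 9 (adjusted p = 0.0898).

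Among 11 receptors, 1 was called higher in PBC, near the 7.60% of all models called higher there. It was Tnfrsf1a, at 0.62 (SE 0.18, adjusted p = 0.0477). In PSC limma called 0, and 2 had an unadjusted p below 0.05, as had 30.1% of all models. There edgeR called 1 and DESeq2 called 1, against 14.2% and 20.7% of all models in either direction. Of 13 signalling proteins and factors, 3 were called higher in PBC (7.60% of all models). In PSC 2 were called higher and 2 lower (8.25% and 6.48% of all models). Cebpb, which encodes a factor of the C/EBP family, rose by 2.15 (SE 0.29, adjusted p = 0.000649) in PBC and 1.60 (SE 0.29, adjusted p = 0.0037) in PSC, and its relative Cebpd by 1.44 (SE 0.34, adjusted p = 0.0139) in PSC. Cebpa, of the same family, was not called in PBC (-0.34, adjusted p = 0.229) or PSC (-0.07, adjusted p = 0.819). Whether these factors act on the members was not tested. Stat3, for the factor downstream of interleukin 6, rose by 1.00 (SE 0.24, adjusted p = 0.0198) in PBC, and Nfkb1, for an NF-kB subunit, by 0.65 (SE 0.18, adjusted p = 0.0367). In PSC, Nr3c1, for the glucocorticoid receptor, changed by -1.83 (SE 0.40, adjusted p = 0.00993) and Irak1, for a kinase of the interleukin 1 pathway, by -0.85 (SE 0.20, adjusted p = 0.0132), both lower. The Tnfrsf1a call in PBC ended on removing PSC 11, 13 or 14, PBC 7 or 9 or control 2, 3 or 4, and on using edgeR, only the compared groups, quality weights, equal totals, TMM scaling or no filter (adjusted p from 0.0625 to 0.197). The Stat3 call in PBC ended on removing PBC 9, and on using only the compared groups or equal totals (adjusted p from 0.0572 to 0.0896). The Nfkb1 call in PBC ended on removing PSC 11, 13 or 14, PBC 9 or control 1, 3 or 4, and on using edgeR, only the compared groups, equal totals or TMM scaling (adjusted p from 0.0547 to 0.159). The Cebpd call in PSC ended on removing PSC 13 or 14 (adjusted p from 0.0525 to 0.0884). The Nr3c1 call in PSC ended on removing PSC 14 (adjusted p = 0.0576). The Irak1 call in PSC ended on removing PSC 13 or 14 (adjusted p from 0.0528 to 0.0882).

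Feedback inhibitors were called higher for 4 of 6 genes in each model, against 7.60% of all models in PBC and 8.25% in PSC. Socs3, the inhibitor of interleukin 6 signalling, rose by 1.42 (SE 0.31, adjusted p = 0.0118) in PBC and 1.83 (SE 0.31, adjusted p = 0.0022) in PSC. Il1r2, the decoy receptor for interleukin 1, rose by 3.36 (SE 0.53, adjusted p = 0.00179) in PBC and 3.86 (SE 0.53, adjusted p = 0.000582) in PSC, or 2.67 and 3.14 with a pseudocount of 10. Of the NF-kB inhibitors, Tnfaip3 rose by 2.30 (SE 0.38, adjusted p = 0.00228) in PBC, or 1.69 without PBC 8, and 1.90 (SE 0.38, adjusted p = 0.0059) in PSC. Nfkbia rose by 0.90 (SE 0.21, adjusted p = 0.0181) in PBC and 0.68 (SE 0.21, adjusted p = 0.0442) in PSC. The Nfkbia call in PBC ended on removing PBC 9, and on using only the compared groups or equal totals (adjusted p from 0.0528 to 0.0814). The Nfkbia call in PSC ended on removing PSC 11, 13 or 14, PBC 9 or control 1, 2 or 4, and on using edgeR, equal totals, TMM scaling or no filter (adjusted p from 0.0502 to 0.164). Over the 38 upstream genes tested, 0 were called between the models by limma (2.24% of all models) and 0 by edgeR (2.26%). At an unadjusted p below 0.05 there were 9 (18.5% of all models), and DESeq2 called 3 (6.60%). The PBC count of 10 became 5 without PBC 9, the PSC count of 10 became 6 without PSC 13 or PSC 14, and the count between models became 2 without control 3.

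Of 15 receptors and partners of the member proteins, 14 were tested, 5 were called higher in PBC and 6 in PSC, and 0 lower. Of all models, 7.60% were called higher in PBC and 8.25% in PSC. Hmox1, the enzyme that breaks down heme such as that carried by hemopexin, rose by 1.63 (SE 0.29, adjusted p = 0.00362) in PBC and 1.46 (SE 0.29, adjusted p = 0.00559) in PSC. Mmp9, a protease that binds lipocalin 2, rose by 2.60 (SE 0.38, adjusted p = 0.00102) in PBC and 1.43 (SE 0.38, adjusted p = 0.0245) in PSC. Of the receptors reported for serum amyloid A, Tlr2 rose by 2.24 (SE 0.26, adjusted p = 0.000245) in PBC and 1.92 (SE 0.26, adjusted p = 0.000517) in PSC, and Fpr2 by 2.16 (SE 0.27, adjusted p = 0.000395) in PBC. Scarb1, a receptor for high density lipoprotein, rose by 1.02 (SE 0.19, adjusted p = 0.00383) in PSC and Cd36, a scavenger receptor, by 1.54 (SE 0.34, adjusted p = 0.0105). Control 4 held 11033 normalised reads of Cd36, against 3603 to 3873 in the other controls. Fpr2 was the 1 gene of the list called between the models (2.24% of all models in either direction), at 1.49 (SE 0.29, adjusted p = 0.0182), PBC minus PSC. The Fpr2 call between the models ended on removing PSC 13 or 14 or PBC 9, and on using equal totals (adjusted p from 0.0532 to 0.112). The count between models became 2 without control 3 or control 4. Lrp2, a lipocalin 2 receptor, was too low to test, with 9.95, 0 and 0 normalised reads in PBC, 0.940, 1.62 and 0 in PSC and 24.6, 0, 0 and 1.39 in control livers.

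Markers of other cell types were read beside the members. For the counts that follow, 7.60% of all models were called higher in PBC and 8.25% in PSC, and 2.34% and 6.48% lower. Kupffer cell and macrophage markers, 7 in all, were called higher for 6 in PBC and 1 in PSC, and summed to 70403 to 106447 normalised reads in PBC, 48849.6 to 68376 in PSC and 26954 to 44714 in controls. Of 4 monocyte markers, 2 were called higher in PBC and 3 in PSC, and they summed to 756 to 2590.0 in PBC, 387 to 753 in PSC and 95 to 212 in controls. Chil3 made up most of the sum in each PBC liver. Ccr2 alone of the 4 had a lower mean in PBC (122) than in PSC (258), with overlapping livers. It was called in PSC (2.04, adjusted p = 0.0322) and not in PBC (0.73, adjusted p = 0.454). The 6 cholangiocyte markers were called higher for 2 in PBC and 6 in PSC, with sums of 10071 to 13549 in PBC, 54368 to 95064 in PSC and 7665 to 13166 in controls. Most of each sum is Spp1, with means of 11209 in PBC, 75427 in PSC and 9081 in controls, so the sums follow this 1 gene. Of 5 adipocyte markers, a cell type that can make Saa3, only Cidec was above the filter on low values and was called higher in PSC, where it averaged 178 normalised reads, against 38.0 in controls. Adipoq averaged 5.64 in PBC, 1.25 in PSC and 2.93 in controls, Lep was at 0 in all 3 groups and Plin1 in PSC. The adipocyte sums, most of them Cidec, were 14.4 to 55.0 in PBC, 84.4 to 299 in PSC and 27.8 to 61.3 in controls. The 5 stellate and myofibroblast markers were called higher for 1 in PBC and 3 in PSC, with sums of 3341 to 5858 in PBC, 8821 to 10046 in PSC and 2273 to 4662 in controls. Erythroid markers, 6 in all, were called higher for 0 in PBC and 1 in PSC, and pancreatic acinar markers, 4 in all, for 0 and 0. The erythroid sums were 46580.3 to 113481 in PBC, 124485 to 419993 in PSC and 64637 to 155794 in controls, and the acinar ones 425 to 1144, 821 to 1068 and 679 to 2248, with Pnlip at 0 in all 3 groups, Cpa1 in PBC and PSC, and Prss2 in PBC. Of the 8 hepatocyte markers, whose sums were lower in each PSC than in each control liver, 1 was called higher in PBC and 1 lower in PSC. Most of the sum is Alb, Apoa1 and Ttr, which are also on the negative acute phase list, so it is no separate measure of hepatocytes. In PSC against control Alb was -0.70, Ttr -0.71, Serpina1c -0.47 and Hnf4a, the 1 called lower, -0.91. Tat was -0.12, Apoa1 -0.10, Apob -0.08 and Cps1 0.21. The part of these cell types in the results on the members was not tested.

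The genes outside the 10 whose profile was most like that of each member were found by the mean absolute difference of log2(value + 1), centred on the controls, over the 10 livers. For Saa1 these were Timp1 (0.57), Ubd (0.59) and Smpd3 (0.67), and for Saa2 Timp1 (0.58), Ubd (0.65) and Smpd3 (0.79), where the value in parentheses is that difference. Timp1, for an inhibitor of matrix proteases, had means of 4.28 in PBC and 6.14 in PSC above control on this scale, against 4.28 and 5.88 for Saa1. The genes nearest to Lcn2 were Timp1 (1.09), Ubd (1.10) and Prtn3 (1.22), and those nearest to Orm2 H19 (0.59), Smpd3 (0.63) and Timp1 (0.79). Saa3 lay nearest to Il1r2 (0.38), Ccl7 (0.41) and 5430437J10Rik (0.45), and Orm3 to Ccl7 (0.40), H19 (0.47) and Dnah1 (0.56). The members with smaller changes had closer neighbours. Saa4 lay nearest to Psmb10 (0.13), H2-D1 (0.14) and H2-K1 (0.16), of which Psmb10 encodes an immunoproteasome subunit and both H2 genes encode MHC class I chains. Orm1 lay nearest to Gngt2 (0.20), Cyp4f16 (0.20) and Nucb2 (0.23), Hp to Ccdc109b (0.22), C5ar1 (0.22) and Vill (0.23) and Hpx to Fxyd5 (0.13), Fcer1g (0.13) and Snx20 (0.14). Within the 10, Saa1 and Saa2 were nearest to each other (0.29), and Orm1 and Hpx likewise (0.30).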

How the data were processed

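Liver RNA of 10 mice had been sequenced from stranded poly(A) libraries as paired reads of 75 bases, per the labels' protocols. Per the submitters' processing notes, STAR 2.4.0, SAMtools, Picard, FastQC and DESeq2 were used with mm10. The deposited signal was scaled by the authors with DESeq2 from reads in FASTDB gene models, per the file headers. Which tool counted the reads, and how it treated strand and shared reads, is unstated in the sources used here. The values of a library were whole multiples of 1 step (99.99% to 100.0% of values, tolerance 0.1), which gave whole reads and a depth of 38272053 to 95422289 reads. In all 10 libraries more models had 2 reads than 1, so both mates of a pair may have been counted.

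Tests used limma 3.58.1 in R 4.3.3, with an intensity trend, on log2(value + 1) for the 18390 models with at least 10 in at least 3 libraries, all 10 libraries in 1 fit with a term per group. A two-sided Benjamini-Hochberg adjusted p below 0.05 is a call. edgeR 4.0.16 and DESeq2 1.42.0 on the recovered reads were alternatives, beside other pseudocounts (0.5 and 10), filters (none, or at least 50), TMM scaling, equal totals, array quality weights, only the compared groups, each library left out, and summed copies. With 3 to 4 mice a group, the number of mice limits the precision, and p-values rest on the spread among them. Replicate numbers are not shared between groups.

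The members and lists were chosen with earlier results of these data known. Named are the 10 members and, from each list and comparison, up to 4 called genes with the smallest adjusted p and any called gene against the direction of its list. Also named are the 3 genes most like each member. Il6, Alb, Hamp, Hamp2, Cebpa, Adipoq, Cidec, Spp1, Chil3, Ccr2 and the single hepatocyte markers were named in addition, after their values were seen. Sequence windows came from GENCODE transcripts, and promoters from RefSeq.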

Additional observations from a re-analysis of the deposited data

Results flagged for a closer look

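In control groups of 4 livers, 42 gene values were checked for a liver whose gap to the nearest other, divided by the range, exceeded Dixon's 95% critical value, and 4 did, where chance gives about 1 in 20. Saa3 had 2296.5 normalised reads in control 3, against 657 to 750.0 in the other controls. Osm had 5.11 in control 3, against 2.57 to 2.78. There 1 read counts as 2.55 normalised reads in control 3, and as 1.28 to 1.39 in the other controls. All 4 controls held the same few whole reads of Osm, so its gap comes from the scaling and is no difference in reads. Stat3 had 1011.6 in control 3, below the 1842 to 1989.5 of the others. Cd36 had 11033 in control 4, against 3603 to 3873.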

How the results depend on the processing

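Against control, all 10 members kept a positive log2 fold change under every alternative run, and the lost calls of Orm1, Saa4, Hpx and the Orm sum stand beside their values. Depth limits genes with few reads: Osm, A2m and the neutrophil markers Ltf, Mpo, Ngp, Camp and Elane were below 10 normalised reads in every control, while the lowest member value was 237 (Orm3 in control 4). With each library left out in turn, the Orm sum in PBC ran over 1.29 to 1.68. No paired analysis was possible because the groups share no replicate numbers. The causes of the changes below were not tested. Scaled to equal totals, the median of all models in PBC against control was -0.12, against 0.01 as deposited. TMM scaling gave 1173 higher and 592 lower calls there, against 1398 and 430.

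Differences between the models near 0 turned sign. Saa3 was -0.003 with TMM scaling, -0.058 with equal totals, -0.024 with edgeR, -0.034 with DESeq2 and -0.46 to 0.46 with a library left out. Orm2 was -0.19 to 0.87 with a library left out. Orm3 was -0.012 with equal totals, -0.22 as summed copies and -0.24 to 0.45 with a library left out. Hpx was -0.015 with TMM scaling, -0.07 with equal totals, -0.02 with DESeq2 and -0.13 to 0.12 with a library left out. The Orm sum, most of it Orm1 reads, was -0.22 in the main fit and 0.083 with quality weights. The sum of Saa1 and Saa2 was called by DESeq2 at -1.65. In PBC against control Il6 was -0.007 with a pseudocount of 10, -0.14 with edgeR, -0.18 with DESeq2 and -0.57 to 0.78 with a library left out. In PSC against control Hamp was 0.34 with quality weights.

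Between the models, DESeq2 called 2 members and leaving out a library gave 0 to 1. Called positive genes in PBC numbered 11 with the compared groups only and 10 to 17 with a library left out, and between models 3 with quality weights, 2 with DESeq2 and 0 to 1 with a library left out. Called negative genes in PBC numbered 0 with no filter, TMM scaling, equal totals or the compared groups only, 2 with quality weights or DESeq2, and 0 to 2 with a library left out. In PSC they numbered 0 with no filter, 2 with the stricter filter or the compared groups only, 3 with equal totals, 4 with quality weights or edgeR, 5 with DESeq2 and 0 to 2 with a library left out, and between models 3 with quality weights, 2 with edgeR or DESeq2 and 0 to 1 with a library left out. Called upstream genes in PBC numbered 6 with equal totals and 5 to 11 with a library left out, in PSC 20 with quality weights and 6 to 12 with a library left out, and between models 1 with a pseudocount of 10, 2 with quality weights or the compared groups only, 3 with DESeq2 and 0 to 2 with a library left out. Called receptors and partners in PSC numbered 10 with quality weights, and between models 0 with equal totals, 2 with quality weights, 3 with DESeq2 and 0 to 2 with a library left out. Of the values for single genes under an alternative, 1420 kept their direction and call, 99 lost the call, 7 gained one and 25 turned sign. Those 25 include the Orm sum counted as an alternative for Orm2 and for Orm3. Of those for counts, sums and shares, 361 kept theirs or moved within the set limits, 65 moved further, 2 lost a call, 1 gained one and 1 turned sign.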

Other observations

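Hamp, which encodes the iron hormone hepcidin and is a positive acute phase gene, was chosen after its values were seen. It had 97514, 120268 and 137578 normalised reads in PBC livers 7, 8 and 9, 150048, 238077 and 150452 in PSC livers 11, 13 and 14, and 121960.0, 214378, 229443 and 262519 in control livers 1 to 4. PBC and PSC livers each overlapped the controls. Every PBC liver lay below every PSC liver (-0.58 for PBC minus PSC, adjusted p = 0.337), and 27.2% of all models did not overlap between the models in either direction. Against control the log2 fold change was -0.76 (SE 0.29, adjusted p = 0.113) in PBC and -0.19 (SE 0.29, adjusted p = 0.712) in PSC. Of the alternatives run, DESeq2 alone called it in PBC, at -0.86 (adjusted p = 0.024, against 0.0506 to 0.426 under the others). Hamp2, a related gene of the same list, went the other way between the models. It had 71489 to 156939 normalised reads in PBC, 22273 to 64539 in PSC and 65386 to 244096 in controls. PBC minus PSC was 1.17 (adjusted p = 0.228) and PSC minus control -1.45 (SE 0.46, adjusted p = 0.0518), neither called by limma.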
